A study of Mus musculus with 21 samples.

Results

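Macrophages of the colon were followed through 10 genes by which they are commonly recognised, Csf1r, Cd68, Adgre1, Cd163, Mrc1, C1qa, C1qb, C1qc, Lyz2 and Cd14. They were chosen by name, out of 27499 genes measured on the array design used at day 0 and 24191 on the design used at day 7, and each was read from its brightest probe of the day. The 21 samples were whole colon RNA of male germ-free (GF) C57BL/6J mice, bred without any microorganism. The labels number 2 of them 2 and 2.1 and do not say whether these are 1 mouse or 2. Before dextran sulfate sodium (DSS), a polymer that injures the colon epithelium when it is drunk, there were 7 arrays labelled GF Card9-/- and 6 labelled GF WT (day 0). After 7 days of 2% DSS there were 4 arrays of each label (day 7). Card9 is an adaptor protein that myeloid cells use downstream of receptors for fungal sugars, and the comparison asked how the colon of germ-free mice with and without it differed at each time. All groups shared sex, strain and the germ-free state, and mouse age was not given in the labels. Arrays are named by label and replicate number, so Card9-/- 5 stands for the array labelled GF Card9-/- replicate 5. Since each day had its own array design, the effect of DSS cannot be told apart from that of the design, and no level is compared between days.

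Resident macrophages of the colon lie beneath the epithelium and around the vessels and nerves of the gut wall, where they engulf dying cells and microbes. Most are renewed from blood monocytes and depend on signals through the receptor encoded by Csf1r. In mouse tissue they are recognised by the adhesion receptor encoded by Adgre1, the lysosomal protein CD68, the scavenger receptors CD163 and CD206 (Mrc1), and the 3 chains of C1q, the molecule that opens the classical complement pathway and in tissues is made largely by macrophages. Lysozyme 2 (Lyz2) is the lysozyme of myeloid cells, and CD14 hands bacterial lipopolysaccharide to Toll-like receptor 4. In RNA of a whole tissue, fewer macrophages and less RNA per macrophage cannot be told apart.

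Each probe is a single stretch of 60 bases. The 3 C1q genes lie side by side on the minus strand of chromosome 4, and at day 0 their probes followed each other the closest of the 10 genes (at day 7 other pairs did), so the probes of C1qa (chr4:136452409-136452468) and C1qb (chr4:136436578-136436637) are shown. The Lyz2 probe (chr10:116719175-116719234, minus strand) was the brightest of Lyz2 at day 7 and is shown because Lyz2 RNA resembles that of Lyz1, and the Cd163 probe (chr6:124270436-124270495, plus strand) is shown because it was the single Cd163 probe at day 7 and gave almost no signal. Coordinates are of mouse build mm9, and all 4 probes were printed on both designs.
C1qa probe: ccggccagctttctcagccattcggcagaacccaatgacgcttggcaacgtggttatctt
C1qb probe: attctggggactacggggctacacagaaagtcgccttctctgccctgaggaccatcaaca
Lyz2 probe: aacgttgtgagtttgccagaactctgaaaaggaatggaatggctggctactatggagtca
Cd163 probe: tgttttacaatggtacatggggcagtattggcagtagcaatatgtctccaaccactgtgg

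The 250 bases before the start were read from RefSeq promoters of build GRCm38.p6 (6 of the 10 genes had an entry). Those of C1qb, C1qc and Lyz2 are shown. Lyz2 followed C1qb and C1qc with r = 0.832 and 0.833 at day 0, less closely than Mrc1 did (0.986 and 0.990). The sequence GAGGAAGT is a core of the motif bound by PU.1, the product of Spi1 and a transcription factor of macrophage development, and it was searched on both strands together with its overlapping parts GGAAGT and GAGGAA. Capitals mark the matches, which on the opposite strand read ACTTCC and TTCCTC. Of the entries not shown, Cd68 and Mrc1 held matches and Cd163 held 0.
C1qb (chr4:136886201-136886450, minus strand): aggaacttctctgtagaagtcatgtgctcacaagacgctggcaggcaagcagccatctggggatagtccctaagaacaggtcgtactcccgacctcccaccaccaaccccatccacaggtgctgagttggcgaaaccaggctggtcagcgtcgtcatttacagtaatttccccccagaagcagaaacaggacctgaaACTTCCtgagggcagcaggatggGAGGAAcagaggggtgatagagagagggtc
C1qc (chr4:136892915-136893164, minus strand): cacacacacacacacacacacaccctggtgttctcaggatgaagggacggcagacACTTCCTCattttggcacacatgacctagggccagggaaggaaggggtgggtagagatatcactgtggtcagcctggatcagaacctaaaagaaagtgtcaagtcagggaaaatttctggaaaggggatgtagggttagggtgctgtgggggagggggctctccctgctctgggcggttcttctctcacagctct
Lyz2 (chr10:117282273-117282522, minus strand): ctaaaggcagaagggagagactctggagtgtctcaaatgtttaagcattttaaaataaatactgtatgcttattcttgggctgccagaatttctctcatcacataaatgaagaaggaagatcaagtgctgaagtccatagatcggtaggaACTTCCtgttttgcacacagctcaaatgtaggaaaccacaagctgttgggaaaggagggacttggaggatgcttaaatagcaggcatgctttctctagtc

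The whole motif GAGGAAGT occurred in C1qc and in 2.44% of the same 250 bases of all 32851 promoters. GGAAGT occurred in 4 of the 6 genes and in 19.7% of all promoters, and GAGGAA in 4 of the 6 genes and in 23.3% of all promoters. These are matches of letters and were not tested as binding sites. Spi1 itself was dim, and its probe was well above background on 1 of the 13 arrays at day 0 and 1 of the 8 at day 7.

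The labels were first checked against Card9. At day 0 its log2 signal averaged 8.90 with an SD of 0.20 over the 7 arrays labelled GF Card9-/- and 2.32 with an SD of 0.011 over the 6 labelled GF WT (limma adjusted p = 2.92e-13). At day 7 it was between 7.93 and 8.57 on the Card9-/- arrays, 7.85 on WT 1, and 2.38, 2.39 and 2.41 on WT 6, WT 4 and WT 5. Card9 signal thus went against the labels, except on WT 1 at day 7. At day 7 the WT label therefore joins arrays with and without Card9 signal. The day 7 Card9 difference was 4.37 with SE 1.24 (limma adjusted p = 0.913). Every direction below is that of the deposited labels. Where the probes lie relative to the deleted part was not given in the sources used here. Between 54.5% and 64.9% of spots per array were well above background at day 0 and between 42.2% and 57.1% at day 7, and no spot was saturated. Genes of the pancreas had a mean log2 signal of 17.22 on Card9-/- 7 at day 0 against 5.57 to 6.95 on the other arrays, and at day 7 of 15.35 on Card9-/- 6 and 11.35 on Card9-/- 2.1 against 4.90 to 6.40. The labels do not say that the replicates are separate litters or cages, so p-values measure the spread between these samples.

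**Figure D1:**
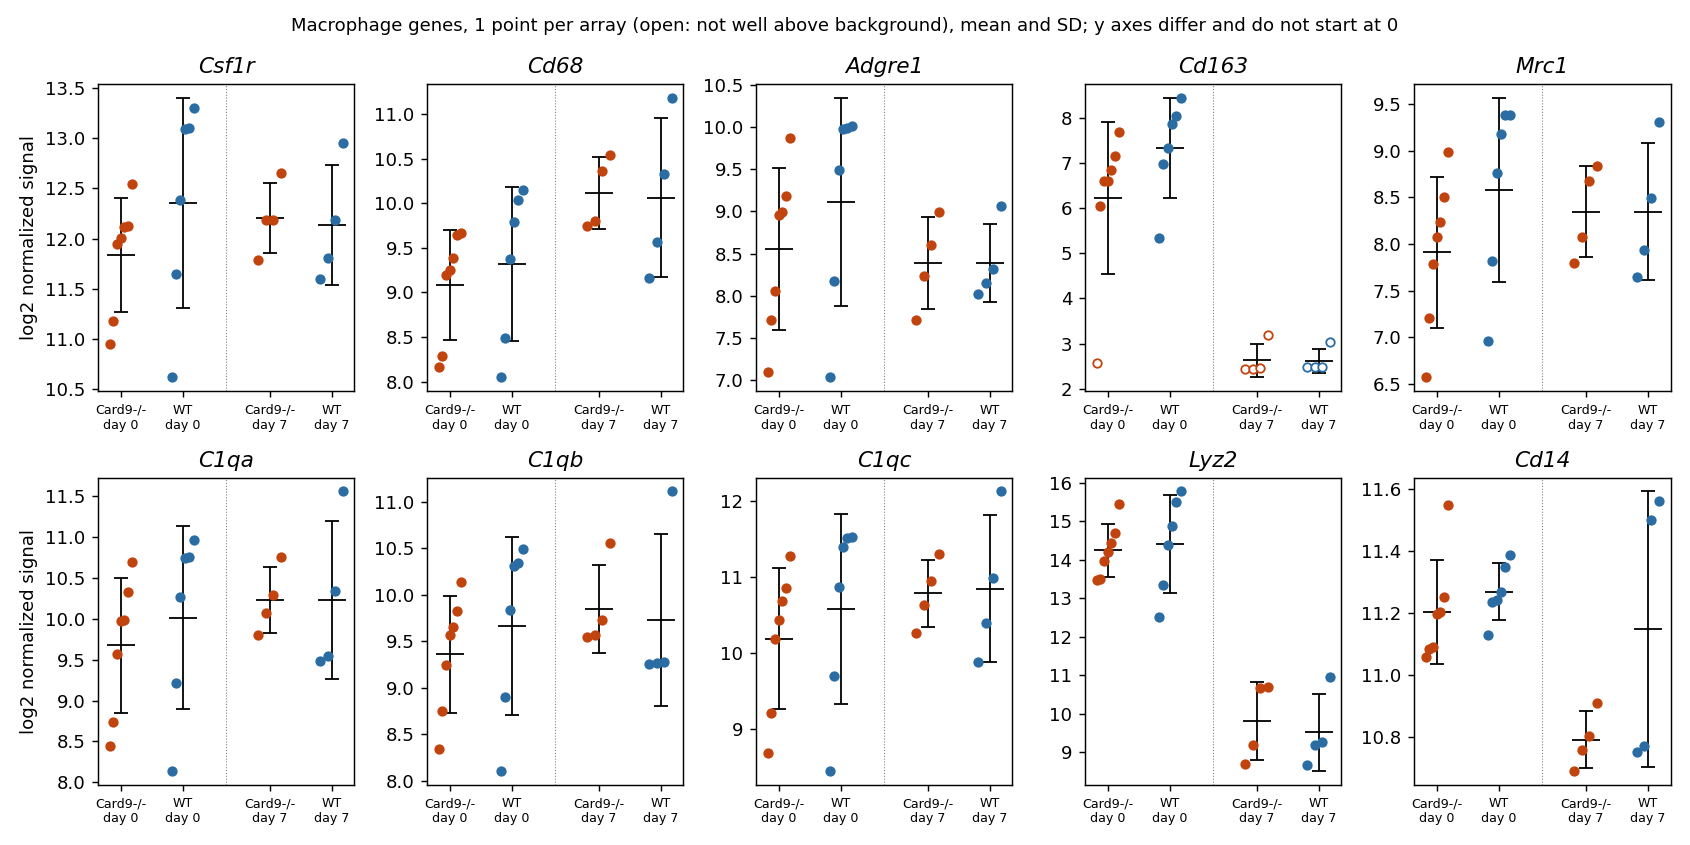
Normalized log2 signal (vertical axis, not starting at 0) of each of the 10 genes by genotype label and day, with 1 point per array, open points for probes not well above background, and the mean and SD of each group. At day 0 the labels overlap in every gene and Cd14 is spread far less than the other genes, while Cd163 at day 7 has open points alone; Adgre1, Cd163, Lyz2 and Cd14 were read from different probes on the 2 days.

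At day 0 all 10 genes varied widely between mice of the same label except Cd14, and in none did the labels separate. Csf1r, the receptor that keeps macrophages alive, had a log2 signal between 10.95 and 12.55 with a median of 12.00 on the Card9-/- arrays. On the WT arrays it lay between 10.62 and 13.30 with a median of 12.74. WT 5 was lowest and WT 2 highest, so the WT arrays enclosed all Card9-/- arrays. The highest array stood 6.39-fold above the lowest.

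Adgre1, an adhesion receptor on the surface of mouse macrophages, lay between 7.10 and 9.87 with a median of 8.96 on the Card9-/- arrays and between 7.04 and 10.01 with a median of 9.73 on the WT arrays. Cd68, the lysosomal protein of phagocytes, lay between 8.16 and 9.67 with a median of 9.25 on the Card9-/- arrays and between 8.05 and 10.14 with a median of 9.58 on the WT arrays. Both genes overlapped between labels over nearly their whole range, with a span of 7.83-fold for Adgre1 and 4.26-fold for Cd68.

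Of the scavenger receptors, Mrc1, the mannose receptor, lay between 6.58 and 8.98 (median 8.08) on the Card9-/- arrays and between 6.96 and 9.38 (median 8.97) on the WT arrays. Cd163, which clears haemoglobin bound to haptoglobin, lay between 2.57 and 7.68 (median 6.61) and between 5.35 and 8.44 (median 7.60). The lowest Cd163 value, on Card9-/- 5, was not well above background, and the probe was well above it on the other 12 arrays. Counting that value, Cd163 had the widest spread of the 10 genes, and Mrc1 had a span of 7.00-fold.

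The 3 chains of C1q were lowest and highest on the same arrays. C1qa was 10.69, 10.33, 9.97, 9.98, 8.44, 9.57 and 8.73 on Card9-/- 1 to 7 and 10.74, 10.76, 10.26, 10.96, 8.14 and 9.21 on WT 1 to 6. WT 5, Card9-/- 5 and Card9-/- 7 were the 3 lowest arrays and WT 4 the highest, so low arrays occurred under both labels. C1qb lay between 8.34 and 10.13 on the Card9-/- arrays and between 8.11 and 10.49 on the WT arrays, and C1qc between 8.69 and 11.29 and between 8.45 and 11.53. The spans of the chains were 7.06-fold for C1qa, 5.23-fold for C1qb and 8.44-fold for C1qc.

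Lyz2, the brightest of the 10 probes, was 14.43, 14.69, 14.20, 13.97, 13.49, 15.44 and 13.48 on Card9-/- 1 to 7 and 14.88, 15.77, 14.39, 15.51, 12.50 and 13.35 on WT 1 to 6. WT 2 was highest and WT 5 lowest, and Card9-/- 6, the fifth lowest array for C1qa, was among the 3 highest for Lyz2. Lyz1, the lysozyme of Paneth cells and a near-identical copy, had a probe whose signal followed that of Lyz2 with r = 0.984 at day 0 and 0.763 at day 7, and signal of one gene on the probe of the other cannot be told apart. Cd14 stayed between 11.06 and 11.55 on the Card9-/- arrays and between 11.13 and 11.39 on the WT arrays, a span of 1.40-fold, and its highest array was Card9-/- 5, on which Cd163 was lowest.

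The spread within a label was set beside that of the 28235 probes well above background on every array of day 0. The median SD of those probes was 0.211 and their 95th percentile 0.689 on the log2 scale. In 9 of the 10 genes the SD was above that percentile, from 0.738 for Cd68 to 1.45 for Cd163. The Cd163 probe is outside that set, since it was not well above background on Card9-/- 5. Its SD rests in part on that array, with 2.57 against 6.05 to 7.68 on the other Card9-/- arrays. Cd14 was the exception, with an SD of 0.138 that exceeded 26.2% of those probes. At day 7 the median SD over 21142 such probes was 0.283 and the 95th percentile 0.739. C1qc with 0.751 and Lyz2 with 1.01 were above it, and Cd163 and Cd14 had SDs of 0.323 and 0.322. The C1qc probe was printed 10 times on each day 7 array, and the SD between its spots had a median of 0.0405, against 0.44 between the Card9-/- arrays and 0.97 between the WT arrays.

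**Figure D2:**
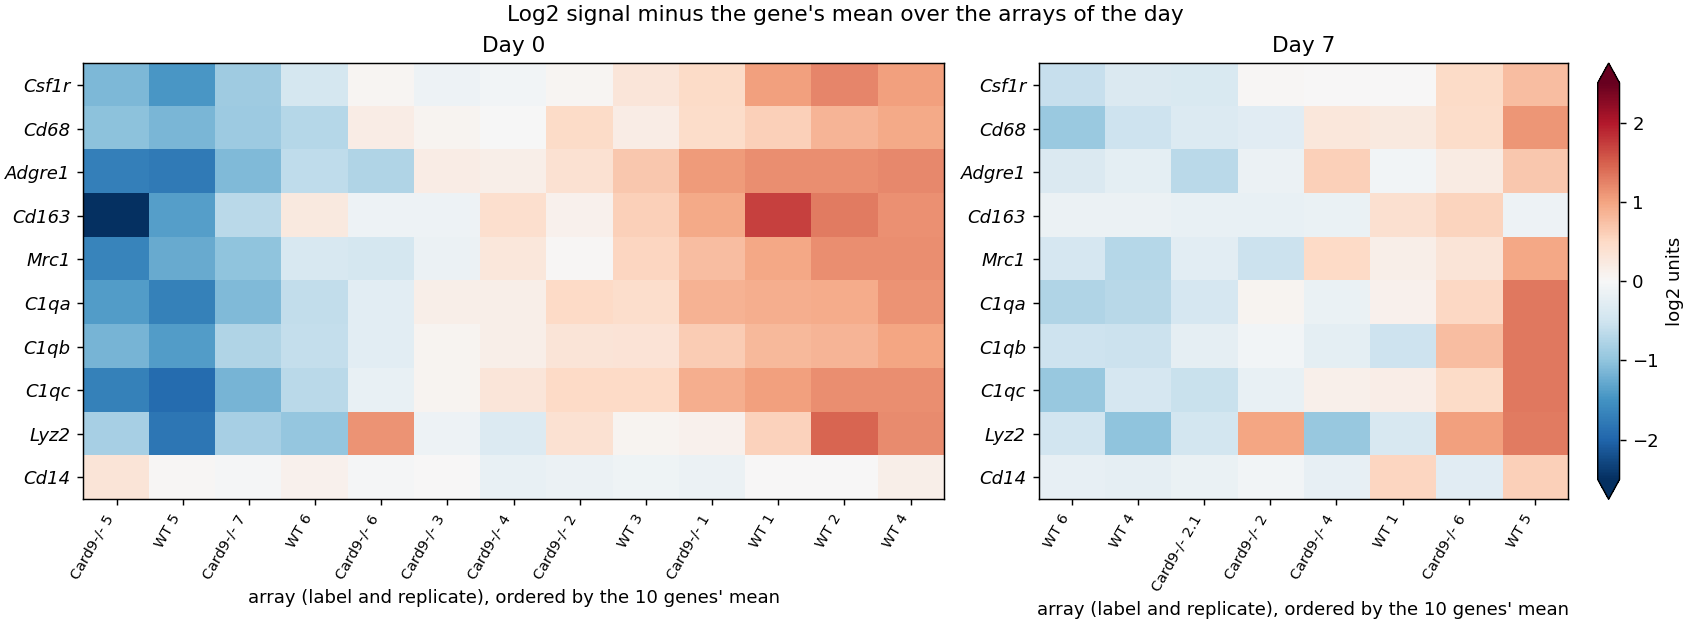
Log2 signal of each gene (rows) minus its mean over the arrays of the day, for each array (columns), with arrays ordered by the mean of the 10 genes. At day 0 the lowest columns are Card9-/- 5 and WT 5 and the highest WT 2 and WT 4, and the Cd14 row does not follow the others.

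Across the 13 arrays of day 0, after the mean of each label was removed, the genes other than Cd14 rose and fell together. C1qa followed C1qb with Pearson r = 0.996 (permutation p = 1e-05, the smallest that 100000 permutations can give; adjusted p = 3.91e-05 over 90 relations) and Spearman's rho = 0.989. The r was 0.989 without the 2 arrays farthest from the median of C1qa, 0.995 and 0.997 within the 2 scan sessions, and 0.997 with slide means removed. Csf1r followed C1qa with r = 0.967 (rho = 0.890) and 0.958 without the 2 farthest arrays. Over the 36 pairs without Cd14 the median r was 0.95, from 0.620 for Cd163 with Lyz2 to 0.996, and all 36 had an adjusted p below 0.05.

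The scavenger receptors Cd163 and Mrc1 correlated with r = 0.874 (permutation p = 7e-05, adjusted p = 0.000263, rho = 0.912). Cd14 was negatively related to all 9 other genes, with a median r of -0.459, and of -0.208 with slide means removed. A single one of these relations passed, with Cd163 (r = -0.740, permutation adjusted p = 0.0210; rho = -0.626, permutation adjusted p = 0.0486). Its r was -0.377 without the 2 farthest arrays, so the size of r rests on them, and -0.301 and -0.849 within the scan sessions. Lyz2 and Cd14 had r = -0.204 (permutation p = 0.506, adjusted p = 0.530, rho = -0.280).

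**Figure D3:**
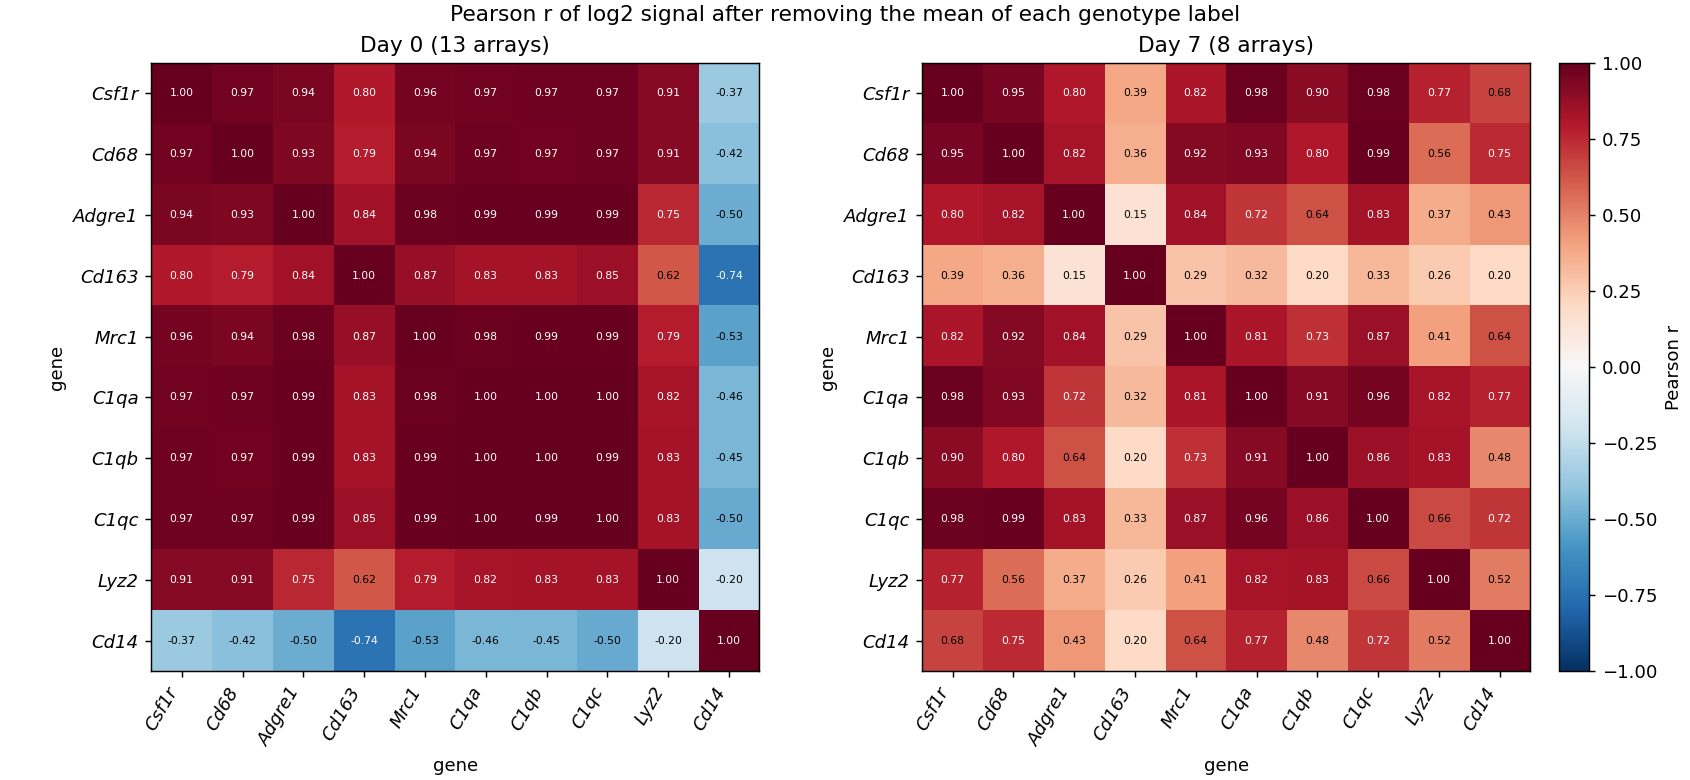
Pearson r between the log2 signals of each pair of the 10 genes after the mean of each genotype label was removed, over 13 arrays at day 0 and 8 at day 7, from -1 (blue) to 1 (red). At day 0 every pair without Cd14 is positive and every pair with Cd14 negative, and at day 7 all pairs without Cd163 are positive, while the Cd163 row there is from a probe not well above background.

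At day 7 the genes again spread within each label and overlapped between labels. Csf1r was 12.19, 11.79, 12.18 and 12.65 on Card9-/- 2, 2.1, 4 and 6 and 12.19, 11.80, 12.95 and 11.60 on WT 1, 4, 5 and 6. WT 5 was the highest array and WT 6 the lowest, with all Card9-/- arrays between them. C1qa was 10.29, 9.80, 10.06 and 10.75 on the Card9-/- arrays and 10.34, 9.54, 11.55 and 9.48 on the WT arrays, and its extremes were the same arrays. C1qb was 9.73, 9.57, 9.55 and 10.55 on the Card9-/- arrays and 9.26, 9.26, 11.11 and 9.28 on the WT arrays. WT 5 stood alone in C1qb, far above the other WT arrays, which lay close together.

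C1qc was 10.64, 10.27, 10.95 and 11.31 on the Card9-/- arrays and 10.99, 10.40, 12.13 and 9.88 on the WT arrays. Cd68 was 9.80, 9.75, 10.36 and 10.54 and then 10.33, 9.57, 11.18 and 9.17 on the same arrays. Both were highest on WT 5 and lowest on WT 6. Adgre1 was 8.24, 7.72, 8.99 and 8.60 on the Card9-/- arrays and 8.32, 8.15, 9.06 and 8.02 on the WT arrays, and Mrc1 was 7.80, 8.08, 8.84 and 8.67 and 8.49, 7.64, 9.31 and 7.93. These surface receptors were also highest on WT 5, and next on Card9-/- 4.

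Lyz2 was 10.65, 9.19, 8.71 and 10.69 on the Card9-/- arrays and 9.26, 8.66, 10.96 and 9.17 on the WT arrays, with WT 5, Card9-/- 6 and Card9-/- 2 standing above the rest. Cd14 was 10.91, 10.80, 10.76 and 10.69 on the Card9-/- arrays and 11.50, 10.75, 11.56 and 10.77 on the WT arrays. For Cd14 alone WT 1 joined WT 5 at the top. Cd163 gave 2.44 to 3.18 on the Card9-/- arrays and 2.48 to 3.03 on the WT arrays and was not well above background on any of the 8. Its probe at day 7 was well above background on 1 of 13 arrays at day 0 also, where another Cd163 probe was so on 12, so Cd163 was not measurable at day 7 with this probe.

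Over the 8 arrays of day 7 the 36 pairs without Cd163 all correlated positively, with a median r of 0.807 from 0.370 to 0.985. Of these, 23 had an adjusted p below 0.05 by the exact permutation test of r over 40320 orders. By rank fewer passed. C1qa with C1qb (rho = 0.690, exact permutation adjusted p = 0.112) and Csf1r with Mrc1 (rho = 0.619, adjusted p = 0.167) are among those that passed by r alone. Csf1r followed C1qa with r = 0.979 (exact permutation adjusted p = 0.000767, rho = 0.976) and 0.943 without the 2 farthest arrays. Csf1r followed Cd68 with r = 0.946 (rho = 0.952) and 0.835 without them. The relation of C1qb with C1qc was r = 0.857 (exact permutation adjusted p = 0.0115), but rho was 0.595 and r was -0.0965 without the 2 farthest arrays, so it rests on those.

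No gene of the 10 differed between the labels in limma at either day. At day 0 limma with Benjamini-Hochberg adjustment called 12 of 47410 probes, 0.0253% of those tested, and 5.84% had an unadjusted p below 0.05. Of the 10 genes 0 passed either threshold in this fit, which does not pair arrays by replicate number. All 10 were lower on the Card9-/- arrays, with a median difference of -0.363 on the log2 scale, while over 23500 genes the median difference was 0.0104 and 55.2% were higher. Markers of other cells differed both ways, with 0 called in any list. Of the tested genes, 8 of 8 of smooth muscle (median -0.452) and 7 of 8 of fibroblasts and endothelium (median -0.527), 5 of 7 of dendritic cells (median -0.234), 7 of 8 of B and plasma cells (median -0.173) and 5 of 8 of the small intestine (median -0.150) were lower, while 9 of 9 of T cells (median 0.207), 10 of 10 of pancreas (median 1.81), 6 of 9 of neutrophils (median 0.219) and 7 of 10 of colonocytes (median 0.0615) were higher, and adipocyte genes were split 4 and 4. Their part in the result was not tested. Of 12 neutrophil genes 4 were well above background on every array, and of 10 pancreas genes 4. The values of the 10 macrophage genes are not independent, since these genes moved together from array to array.

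Cd163 had the widest difference at day 0, -1.12 with SE 0.76 (6.22 ± 1.68 on 7 Card9-/- arrays and 7.33 ± 1.10 on 6 WT arrays, SD; limma adjusted p = 0.912, two-sided exact permutation p = 0.194), with a 95% interval from -2.78 to 0.54. The value rests in part on Card9-/- 5, where Cd163 was not well above background: it was -0.51 without that array, -0.71 with dim values raised to the floor, -0.58 with normexp background and -0.68 in the authors' normalized table. Mrc1 differed by -0.67 with SE 0.47 (limma adjusted p = 0.912, exact permutation p = 0.203), and Csf1r by -0.52 with SE 0.43 (limma adjusted p = 0.912, exact permutation p = 0.272). C1qa differed by -0.34, with a 95% interval from -1.45 to 0.77. A drop of 1 on the log2 scale lay inside the interval of 9 of the 10 genes and a rise of 1 inside that of 0. For Cd14 the difference was -0.065, with the narrow interval from -0.24 to 0.11. The labels were non-overlapping for 0 of the 10 genes, against 0.458% of all probes tested.

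**Figure D4:**
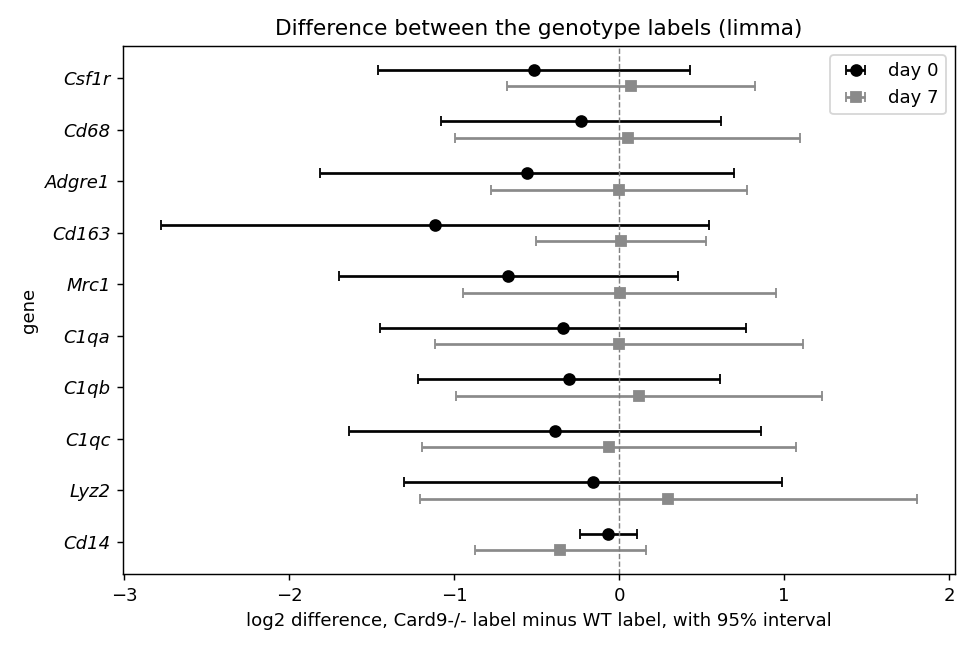
Difference in log2 signal between the arrays labelled Card9-/- and WT (horizontal axis) for each gene at day 0 and day 7, with the 95% interval of limma as a bar. Every interval includes 0, and that of Cd14 at day 0 is the narrowest.

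The direction at day 0 was the same within both scan sessions for all 10 genes. Cd163 differed by -1.39 and -0.77 and C1qa by -0.47 and -0.20 in the 2 sessions. Within the 4 slides, each of which held both labels, C1qa ranged from -2.01 to 0.70 and Lyz2 from -1.41 to 1.11, and Mrc1 was below 0 on all 4. Without WT 5, the lowest of the WT arrays, the median of the 10 differences was -0.759, and without Card9-/- 5 it was -0.135. Without Card9-/- 7, the array with pancreas signal, it was -0.212.

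At day 7 limma called 0 of 44643 probes, or 0% of those tested, 3.38% had an unadjusted p below 0.05, and 2.13% did not overlap between labels. Of the 10 genes 0 passed either threshold and 0 were without overlap. Over the 9 genes without Cd163 the differences had a median of 0.0020, with 5 genes higher and 4 lower on the Card9-/- arrays, and over 20917 genes 49.8% were higher. Cd14 had the widest, -0.36 with SE 0.22 (limma adjusted p = 0.913, exact permutation p = 0.286), and Lyz2 the next, 0.30 with SE 0.64 (limma adjusted p = 0.963, exact permutation p = 0.829). C1qa differed by -0.00075, with a 95% interval from -1.12 to 1.11, which holds a drop and a rise of 1. The signs of several genes turned when a single array was left out, and without WT 5 the median difference of the 9 genes was 0.371. Without Card9-/- 2.1 and 6, the arrays with pancreas signal, it was -0.026. Without WT 1, whose Card9 signal was high, it was 0.037.

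Whether the label difference itself changed between days was fitted on the 23633 probes shared by both designs. Limma called 0 of them, or 0%, and 7.14% had an unadjusted p below 0.05. The brightest day 7 probe of Adgre1 was not on the day 0 design. The other 9 genes had 0 calls, from -0.25 for Cd14 (SE 0.20, limma adjusted p = 0.831) to 0.67 for Mrc1 (SE 0.70, limma adjusted p = 0.884). Cd163 was fitted there on its dim probe (limma adjusted p = 0.793). That probe was well above background on 1 of 13 arrays at day 0 and 0 of 8 at day 7, so no difference is given for Cd163. Csf1r gave 0.59 with SE 0.62 (limma adjusted p = 0.886) and C1qa 0.34 with SE 0.77. C1qa ranged from 0.090 to 0.79 when each array of day 7 was left out. Arrays of day 0 were not left out in this comparison.

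A list of 40 further genes of macrophages and monocytes was read in the same way. At day 0, 39 were tested, 0 were called and 3 had an unadjusted p below 0.05, against 5.84% of all probes tested. On the Card9-/- arrays 9 were higher and 30 lower, with a median difference of -0.168. The 5 with the lowest unadjusted p were Maf, a transcription factor of resident macrophages (-0.53, SE 0.13, limma adjusted p = 0.348), Mertk, a receptor for engulfing dying cells (-0.27, adjusted p = 0.710), Cd5l, a secreted macrophage protein (0.67, adjusted p = 0.785), and the scavenger receptors Marco (1.25) and Msr1. Cd5l was well above background on 5 of 6 WT arrays and Marco on 6 of 7 Card9-/- arrays, and Msr1, well above it on 0 Card9-/- and 3 WT arrays, is given no difference. At day 7, 39 were tested, 0 were called and 1 had an unadjusted p below 0.05, against 3.38% of all probes tested. Of the 39, 27 were higher and 12 lower, with a median of 0.156. Most lists of other cells were also higher there, with 10 of 10 tested neutrophil genes (median 0.334), 8 of 9 of T cells (0.754), 7 of 8 of dendritic cells (0.197), 6 of 7 of B and plasma cells (0.321), 9 of 10 of colonocytes (0.277), 7 of 8 of adipocytes (1.23), 9 of 10 of pancreas (4.84) and 5 of 7 of the small intestine (1.08), while 7 of 8 of smooth muscle (-0.384) and 7 of 8 of fibroblasts and endothelium (-0.0947) were lower, and their part in the result was not tested. Of 12 neutrophil genes 4 were well above background on every array and 5 on none. Of 10 pancreas genes 1 was so on every array, and some of these directions are therefore of probes at background. The 5 lowest were Ctss, a lysosomal protease (0.47, limma adjusted p = 0.913), Cd5l (1.71), the transcription factor Irf8 (0.30), the monocyte chemokine receptor Ccr2 (0.71) and the lectin Clec10a (0.82). Of these, Cd5l was well above background on 2 of 4 WT arrays and Ccr2 on 1 of 4, so their differences were taken in part against background.

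Many of these genes followed the joint level of the 10, which is the mean of their deviations, each divided by its SD, over those well above background on every array. As a description, 13 of 26 such genes at day 0 and 15 of 29 at day 7 had r over 0.8 with it (50% and 51.7%), against 7.08% of 15486 and 4.44% of 13006 genes of the whole array. The median r was 0.794 and 0.805, against -0.281 and -0.0539 over all genes. At day 0 Mpeg1, a pore-forming protein of phagocytes, had r = 0.99 and Trem2 and Cx3cr1, receptors of tissue macrophages, were likewise near the top. Mertk with -0.68 and Maf with -0.08 did not follow at day 0, while Maf had 0.97 at day 7. All points share the array and its normalization.

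Markers of other cells moved with the macrophage genes as well. At day 0 C1qa followed the mean of 8 genes of fibroblasts and endothelium with r = 0.974 (permutation p = 1e-05, adjusted p = 0.00018 over 88 relations, rho = 0.962), 0.959 without the 2 farthest arrays and 0.995 and 0.982 within the scan sessions. All 8 were well above background on every array, and the log2 of their summed signal was 13.81 to 16.73 on the Card9-/- arrays and 14.09 to 17.00 on the WT arrays. Genes of this list had a median r of 0.904 with the joint level, and Kdr, the endothelial receptor for VEGF, and Dcn, a collagen-binding protein of fibroblasts, had 0.96 and 0.94 at day 0 and -0.42 and 0.71 at day 7. Smooth muscle genes followed C1qa with r = 0.810 (permutation adjusted p = 0.00988, rho = 0.753) and Cd14 with r = -0.699 (permutation adjusted p = 0.0276), which by rank did not pass (rho = -0.676, permutation adjusted p = 0.0772) and was -0.515 without the 2 farthest arrays. Colonocyte genes had a median r of -0.496 with the joint level over 9 genes, of which Slc26a3 (0.38), Aqp8 (0.25) and Car4 (0.06) were above 0, and their mean level had r = -0.215 with C1qa (permutation adjusted p = 0.608, rho = -0.423), with -0.909 and 0.354 within the scan sessions. The part of these other cells in the spread of the macrophage genes was not tested.

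Lyz2 followed the other macrophage and monocyte genes with r = 0.953 at day 0 (permutation adjusted p = 0.00018, rho = 0.940) and the genes of dendritic cells with r = 0.970 (permutation adjusted p = 0.00018, rho = 0.989, 0.978 without the 2 farthest arrays), a difference that was not tested. Csf1r and C1qa also followed the dendritic cell genes at day 0, with r = 0.874 and 0.784 (permutation adjusted p = 0.00126 and 0.0134). At day 7 they had r = 0.866 and 0.850 (exact permutation adjusted p = 0.0276 for both). By rank neither passed at day 7 (rho = 0.810 and 0.786, exact permutation adjusted p = 0.0913 and 0.102). Without the 2 farthest arrays r was 0.678 and 0.780 there. At day 7 Lyz2 had r = 0.916 with dendritic cell genes (exact permutation adjusted p = 0.0169, rho = 0.881) and r = 0.729 with the other macrophage genes, which did not pass (exact permutation adjusted p = 0.116) and was 0.066 without the 2 farthest arrays. With genes of B and plasma cells it had r = 0.870 at day 0 (permutation adjusted p = 0.00209, rho = 0.846). Of the 8 dendritic cell genes 3 were well above background on every array at day 0 and 4 at day 7. In both lists Card9-/- 6, WT 2 and WT 4 were high, as for Lyz2. At day 7 C1qa had r = 0.729 and Csf1r r = 0.779 with fibroblast and endothelial genes, and neither passed (exact permutation adjusted p = 0.116 and 0.0778). Genes of the small intestine ran opposite to Cd14 (r = -0.868, exact permutation adjusted p = 0.0321; rho = -0.881, adjusted p = 0.0455; r = -0.584 without the 2 farthest arrays) and to C1qa (r = -0.836, exact permutation adjusted p = 0.0336; rho = -0.833, adjusted p = 0.0772; r = -0.340 without them). Of that list 3 genes were well above background on every array at day 7, and of these Fabp2 had r = -0.85 with the joint level and Fabp6 and Lyz1 0.62 and 0.84. Adipocyte genes had a median r of -0.779 with the joint level and ran opposite to Csf1r (rho = -0.905, exact permutation adjusted p = 0.0402; r = -0.776, adjusted p = 0.0760, and -0.497 without the 2 farthest arrays). Their part in the result was not tested.

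**Figure D5:**
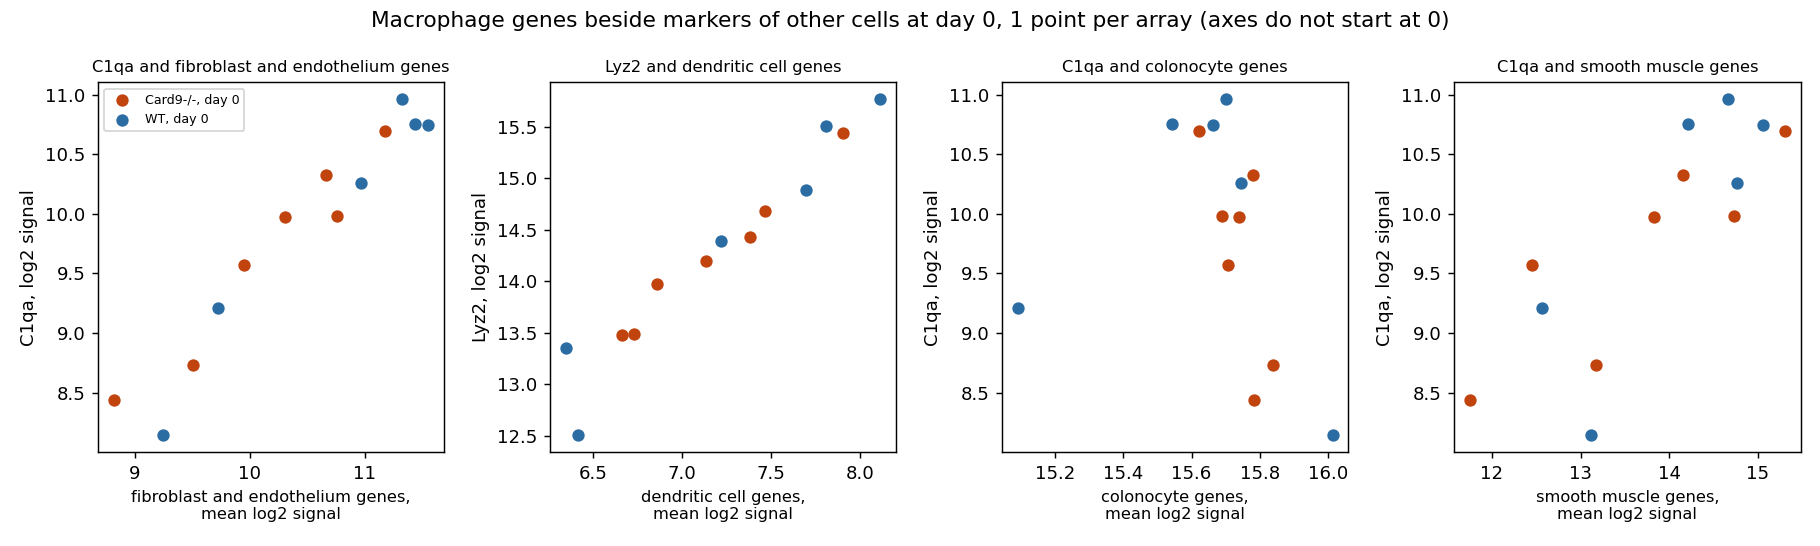
Log2 signal of C1qa or Lyz2 (vertical axes) against the mean log2 signal of marker genes of fibroblasts and endothelium, dendritic cells, colonocytes and smooth muscle (horizontal axes) on the 13 arrays of day 0, coloured by genotype label; axes do not start at 0. C1qa and fibroblast and endothelial genes follow a line with r = 0.974, and Lyz2 and dendritic cell genes with r = 0.970.

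The genes outside the lists whose signal was most like the joint level of the 10 were named by their r with it. At day 0 they were Epb41l2, a protein of the membrane skeleton (r = 0.987 over 13 arrays, 0.787 at day 7), C1s2, a complement protease of the C1s family (0.980, 0.957 at day 7), Ifitm1 (0.980, 0.816), Gtf2i (0.980, 0.460) and Cd300c2, a receptor of myeloid cells (0.979, 0.782). At day 7 they were Tmem158 (0.995 over 8 arrays, 0.879 at day 0), Nrbp1 (0.984, -0.154), Vsir, an inhibitory immune receptor (0.982, 0.973), the protease cathepsin C (Ctsc; 0.981, 0.369) and Jak3 (0.980, -0.570). C1s2 and Vsir were above 0.9 on both days, whereas Nrbp1 and Jak3, chosen at day 7, were below 0 at day 0.

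Other probes of the same genes were compared with the brightest. At day 0 the 2 other Cd68 probes followed it with r = 0.969 and, for a probe well above background on 3 of 13 arrays, 0.961, and that of Lyz2 with 0.985. Second probes of Adgre1 and C1qc, well above background on 0 arrays, had r = -0.147 and -0.795, and that of Cd163, well above on 1, had 0.347. The second Cd14 probe gave r = 0.694. Csf1r had a probe that ran the other way, with r = -0.900 at day 0 and 0.136 at day 7, while another Csf1r probe had 0.955 at day 7. How Csf1r varied between arrays thus depends on the probe, while its label difference at day 0 was below 0 with both probes (-0.52 and -0.12). At day 7 its 3 probes differed in sign (0.069 with the brightest, -0.22 and 0.24 with the others).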

How the data were processed

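RNA of 21 colon samples was hybridised in one colour (Cy3) to Agilent arrays, 1 per sample, and read with Feature Extraction 10.7.3.1 by the authors. The deposited intensity is the processed signal of each spot on a linear scale, after the scanner software's background subtraction, and the deposited p-value gives detection of each spot over background. The log2 values that the authors normalized and deposited served as an alternative. Coordinates are of mouse build mm9. Here the processed signal was put on the log2 scale and quantile normalized separately for each day. Control and outlier spots were removed, and repeated spots of a probe averaged. Probes with a detection p under 0.05 in 60% of the arrays of a genotype were tested in limma 3.58.1 (lmFit and eBayes, R 4.3.3, statmod 1.5.0, data.table (1.17.8)), each day apart, with Benjamini-Hochberg adjustment at 0.05. Single values were tested by exact permutation over samples and correlations by 100000 permutations at day 0 and all orders at day 7. Probes were named from a RefSeq accession (32994 of 56605 at day 0, 27656 of 55681 at day 7) or else by the file's own symbol (13297 and 5484), and the rest had no name. Array number, not read depth, limits precision.

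The named genes were the 10 by brightest probe, Card9, the 5 further macrophage genes of lowest unadjusted p per day (none passed) and the 5 most alike outside the lists. Lyz1, Spi1, Mpeg1, Trem2, Cx3cr1, Kdr, Dcn, Slc26a3, Aqp8, Car4, Fabp2 and Fabp6 fall outside this rule and were chosen after their values were seen. The 10 genes and all lists were chosen with earlier results of these data known, and the relations with lists after seeing the data. Alternatives were 75th percentile scaling, normexp background, the authors' table, a filter on probes well above background, slide and replicate blocks, replicates 2 and 2.1 averaged, and leaving out each array. For the comparison by day, arrays of day 7 alone were left out. On simulated data with 200 changed probes, limma found 98% of log2 changes of 3 and 54% of 1 at day 0 (47301 probes). At day 7 (44589 probes) it found 69% and 16%. The changed probes were drawn at random from all those simulated. The 10 genes had a median SD of 0.93 at day 0 and 0.66 at day 7. Probes well above background on every array had 0.211 and 0.283. These shares therefore do not hold for genes spread as widely as the 10, which were not simulated apart. The same-numbered arrays 2 and 2.1 differed as much as other pairs and were kept as 2 samples.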

Additional observations from a re-analysis of the deposited data

Results flagged for a closer look

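In 40 groups of 4, 6 or 7 arrays tested for an array far from the rest by Dixon's ratio, 5 had one, where chance gives about 1 in 20. C1qb at day 7 was 11.11 on WT 5, far above the other 3 WT arrays. Cd14 at day 0 was 11.55 on Card9-/- 5, the highest of its label. Cd163 at day 0 was 2.57 on the same array, where its probe was not well above background. Cd163 at day 7 was 3.18 on Card9-/- 6 and 3.03 on WT 1, with a probe that never rose well above background that day.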

How the results depend on the processing

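None of the 10 genes was called in any comparison under any alternative run. At day 0 the 12 calls became 27 with normexp background, 22 in the authors' table, 22 with the filter on probes well above background and 7 with the replicate number as a block, and 8 to 16 when each array was left out. At day 7 the 0 calls became 1 without WT 1 and 2 without both Card9-/- arrays with pancreas signal, an alternative chosen after seeing the data. The genotype by day comparison gave 0 to 2 calls on leaving out arrays of day 7 (1 without Card9-/- 2.1 or WT 4, 2 without WT 5 or WT 6). It gave 1 with the replicate block. At day 0 the direction of 9 genes held under every alternative, and Lyz2 ranged from -0.54 to 0.11 on leaving out arrays, above 0 without WT 2 (0.11) or WT 4 (0.061). The replicate block at day 0, over 6 same-numbered pairs, gave Mrc1 -0.55 (SE 0.16), Cd163 -1.09 (SE 0.32) and Adgre1 -0.42 (SE 0.17). Their limma adjusted p were 0.441, 0.448 and 0.578. Without the block the SEs were 0.47, 0.76 and 0.58. The median of the 10 differences was -0.213 with it. The precision of several day 0 differences thus depends on whether the numbers pair mice, which the labels do not say.

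At day 7 the signs near 0 turned often. The replicate block at day 7 compares the labels within 2 same-numbered pairs alone, those of replicates 4 and 6. The other arrays, among them the WT array highest in C1qa, do not enter its differences. Under the replicate block Adgre1 was 0.71, C1qa 0.90, C1qc 0.99 and Cd14 by day 0.082. Of the 10 genes 9, Cd163 included, were higher, with a median of 0.78, and Cd14 was -0.038. By day the block gave 1.08 for C1qa, 1.52 for Mrc1 and a median over 9 genes of 1.08, against 0.43 without it. The day 7 side of these values rests on the same 2 pairs. Same-numbered arrays deviated together with r from -0.022 to 0.375 over 6 pairs at day 0. At day 7 the 2 pairs had 0.029 and 0.111. The median r at day 0 was 0.176, against -0.059 over 36 other pairs. At day 7 it was 0.070, against -0.0068 over 14 others. At day 0 4 of 12 arrays correlated best with their own number, and at day 7 2 of 4. The labels do not say that the numbers pair mice, and the main fits did not pair them. With 75th percentile scaling Cd163 was -0.44 and C1qa 0.035. With normexp Adgre1 was 0.027, Cd163 -0.11 and Mrc1 -0.036, and in the authors' table they were 0.022, -0.18 and -0.058. With slide as a random block C1qa was 0.036. With replicates 2 and 2.1 averaged Adgre1 was 0.13, C1qa 0.059 and C1qc 0.052. Without the arrays with pancreas signal Adgre1 was 0.22, Cd163 -0.19, Mrc1 -0.026 and C1qb -0.085. On leaving out each array, the ranges at day 7 were -0.11 to 0.34 for Csf1r, -0.25 to 0.43 for Cd68, -0.20 to 0.23 for Adgre1, -0.18 to 0.16 for Cd163, -0.23 to 0.33 for Mrc1, -0.25 to 0.45 for C1qa (0.14 without Card9-/- 2.1), -0.11 to 0.59 for C1qb, -0.38 to 0.37 for C1qc, 0.0044 to 0.79 for Lyz2 and -0.49 to -0.22 for Cd14. Cd68 by day ranged from -0.016 to 0.66 on leaving out each array of day 7. The cause was not tested.

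The 8 relations between genes that were singled out (the C1q pairs, Csf1r with Cd68, Adgre1 and C1qa, Cd163 with Mrc1, Lyz2 with Cd14) kept their direction and their side of the threshold with 75th percentile scaling at both days and with slide means removed at day 0. Slide means were not removed at day 7, where 1 residual degree of freedom remains. Cd163 has no day 7 value with the filter on probes well above background.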
